A study of Mus musculus with 6 samples.

Results

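The markers of Kupffer cells and of liver sinusoidal endothelial cells were followed in whole mouse liver after a long and a short fast. They comprise 31 genes of the 55471 in the count tables, listed by name as known markers, with earlier results of these data known, 14 for Kupffer cells and other macrophages and 17 for endothelium. The livers came from 6 male wild-type C57BL/6J mice, an inbred laboratory strain, of which 3 had been fasted for 16 h and 3 for 4 h. Each mouse gave 1 RNA sequencing library. The labels name no transgene and no treatment besides the fast, and no unfasted mice were part of the comparison. The libraries held 15173653 to 26572532 counts assigned to genes. All 31 markers had counts in each of the 6 libraries.

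Kupffer cells are the resident macrophages of the liver and sit inside its capillaries, the sinusoids. They take up bacteria, aged red cells, dying cells and complement-coated particles from portal blood. The sinusoids are lined by a fenestrated endothelium without a usual basement membrane, which clears denatured proteins, hyaluronan, modified lipoproteins and small immune complexes through scavenger receptors. Both cell types are a minority beside hepatocytes. In RNA from whole liver, fewer cells of a type and less of a transcript per cell cannot be told apart.

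Levels are given in CPM, the count of a gene relative to the total of its library, on library sizes scaled by the TMM method, and changes as log2 fold change of 16 h over 4 h ± SE from the quasi-likelihood test of edgeR. A gene passed with a Benjamini-Hochberg adjusted p under 0.05 over the 13812 genes tested. Of all genes in this comparison, 18.7% passed, 9.18% higher and 9.51% lower after 16 h. The median change was -0.03, and 53.2% of genes lay below 0. An unadjusted p under 0.05 was reached by 16.2% as higher and 17.3% as lower, and DESeq2 called 10.1% higher and 9.78% lower. Of the 31 markers 30 had enough counts to be tested, 13 of the 14 for Kupffer cells and all 17 for endothelium.

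One library stood apart on the second principal component and in several marker lists of other cells and tissues, chosen with earlier results known. It was the highest library for 27.8% of all genes tested. Replicate 3 of the 4 h fast lay at -33.5 on the second principal component, against 14 and 26.5 for the other 4 h libraries and -5.7 to 3.1 for the 16 h libraries. The summed level of 13 lung epithelium markers was 244 CPM in it, against 45.1 and 35.9 CPM in the other 4 h libraries and 40.7 to 50.6 CPM in the 16 h libraries, and 12 of the 13 were at their highest there. Among lung macrophage markers, 5 of 9 were highest in that library (22.0 CPM in sum, against 9.57 to 12.8 CPM after 16 h and 12.3 and 15.3 CPM in the other 4 h libraries), and Car4 and Ear1 had counts in no other. Neutrophil markers reached 18.5 CPM in sum, against 2.84 to 5.72 CPM after 16 h and 2.90 and 2.64 CPM in the other 4 h libraries, with 8 of 11 highest there and Ly6g at 0 everywhere else. The lung endothelium list did not stand out there, with 236 CPM in sum, against 223 to 244 CPM after 16 h and 262 and 256 CPM in the other 4 h livers, although 6 of 9 genes were highest and Car4 had counts in no other library. The monocyte list, most of it Fn1, was lowest there in sum, at 807 CPM, against 1378 to 1533 CPM after 16 h and 1241 and 1124 CPM in the other 4 h livers. By gene, however, 6 of its 9 markers were highest there. Of the cholangiocyte markers 6 of 8 were highest in that library, and of the 6 erythroid and 8 dendritic cell markers 0 were. Macrophages and vessels of the lung share several of the markers described here, so a change that moved by more than 1.5 times without this library is given both ways. The part of these transcripts in the values below was not tested.

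Regulatory sequence is shown for 6 of the 22 markers with a RefSeq promoter window. C1qa and Lyve1, among others, had no such window. Timd4 and Tek were those that passed the test, Marco passed only without the library above, Clec4f had the highest level per kilobase among the Kupffer markers, and C1qb and C1qc are neighbouring genes with the same order of 4 h livers. They were chosen after the values were seen. Each line gives the 250 bases before the RefSeq start of the gene (GRCm38.p6), 5′ to 3′ on the strand of the gene. Capitals mark the letters GAGGAAG or CAGGAAG, read on either strand, which are short forms of the site bound by ETS factors, the family that includes PU.1 of macrophages and several regulators of endothelium.
Timd4, chr11:46810549-46810798, plus strand: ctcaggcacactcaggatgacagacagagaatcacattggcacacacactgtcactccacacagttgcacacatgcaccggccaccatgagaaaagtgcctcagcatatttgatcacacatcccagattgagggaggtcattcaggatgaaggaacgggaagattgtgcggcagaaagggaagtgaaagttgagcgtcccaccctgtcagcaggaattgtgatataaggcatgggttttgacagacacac
Marco, chr1:120505025-120505274, minus strand: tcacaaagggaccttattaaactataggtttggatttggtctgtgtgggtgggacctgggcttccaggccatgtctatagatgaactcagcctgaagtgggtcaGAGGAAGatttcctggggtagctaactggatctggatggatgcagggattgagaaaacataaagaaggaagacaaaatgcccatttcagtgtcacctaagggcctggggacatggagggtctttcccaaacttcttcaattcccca
Clec4f, chr6:83656117-83656366, minus strand: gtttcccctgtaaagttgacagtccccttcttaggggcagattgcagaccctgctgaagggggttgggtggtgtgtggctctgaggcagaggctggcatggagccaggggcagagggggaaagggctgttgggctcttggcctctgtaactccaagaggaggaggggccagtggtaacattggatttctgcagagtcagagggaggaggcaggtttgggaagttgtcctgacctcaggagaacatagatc
C1qb, chr4:136886201-136886450, minus strand: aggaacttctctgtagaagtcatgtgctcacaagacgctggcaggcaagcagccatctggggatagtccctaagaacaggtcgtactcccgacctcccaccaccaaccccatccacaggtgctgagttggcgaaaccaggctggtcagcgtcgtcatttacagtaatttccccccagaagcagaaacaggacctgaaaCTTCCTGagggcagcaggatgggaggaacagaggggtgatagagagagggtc
C1qc, chr4:136892915-136893164, minus strand: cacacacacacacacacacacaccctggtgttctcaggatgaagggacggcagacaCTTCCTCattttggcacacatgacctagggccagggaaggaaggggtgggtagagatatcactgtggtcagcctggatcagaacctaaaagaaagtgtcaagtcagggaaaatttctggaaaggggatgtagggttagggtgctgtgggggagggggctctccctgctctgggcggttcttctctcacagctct
Tek, chr4:94739039-94739288, plus strand: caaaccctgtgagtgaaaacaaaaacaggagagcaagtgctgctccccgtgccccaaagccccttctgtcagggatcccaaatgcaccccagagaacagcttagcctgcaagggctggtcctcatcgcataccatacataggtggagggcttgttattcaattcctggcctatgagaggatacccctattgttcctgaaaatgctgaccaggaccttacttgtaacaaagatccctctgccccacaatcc

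GAGGAAG began 146 bases before the start of Marco and, on the other strand, 194 bases before that of C1qc, while CAGGAAG lay on the other strand 52 bases before C1qb. The windows of Timd4, Clec4f and Tek held neither. Among the 22 markers with a window in the RefSeq table, 5 held GAGGAAG in at least 1 window (C1qc, Cd5l, Eng, Marco and Mrc1) and 5 held CAGGAAG (C1qb, Egfl7, Folr2, Mrc1 and Stab1). Over all 32851 windows of the same length the shares were 10.6% and 10.8%. These are shares of single windows, whereas the markers were counted by gene with any of its windows, so the figures cannot be compared directly. These matches describe letters and are not evidence of binding.

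Among the Kupffer cell and macrophage markers, Timd4 fell after the longer fast, none rose and 12 did not pass. That is 1 of 13 tested, beside 9.51% of all genes called lower. The median change of the 13 was -0.24, with 10 below 0 and 3 above, beside 53.2% of all genes below 0. Marker lists of other cell types also had medians below 0, at -0.36 for stellate cells (-0.38 without 4 h replicate 3, 2 of 12 called lower), -0.43 for cholangiocytes (-0.12, 0 of 6 called) and -0.84 for erythroid cells (-0.92, 1 of 5 called lower). The hepatocyte list lay at -0.19 (-0.12 without 4 h replicate 3, with 3 called higher and 3 lower of 10). Dendritic cell markers lay at -0.05 (-0.07, 0 of 5 called). Of the 13 Kupffer markers, 4 were lower and 0 higher by unadjusted p under 0.05. DESeq2 called 4 of them lower (Timd4, Clec4f, C1qa and C1qc) and 0 higher. Over all genes 17.3% and 9.78% were lower by these criteria and 16.2% and 10.1% higher. Without 4 h replicate 3 the median of the 13 was -0.12, against 0.00 over all genes, and the only Kupffer call was a rise of Marco.

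**Figure D1:**
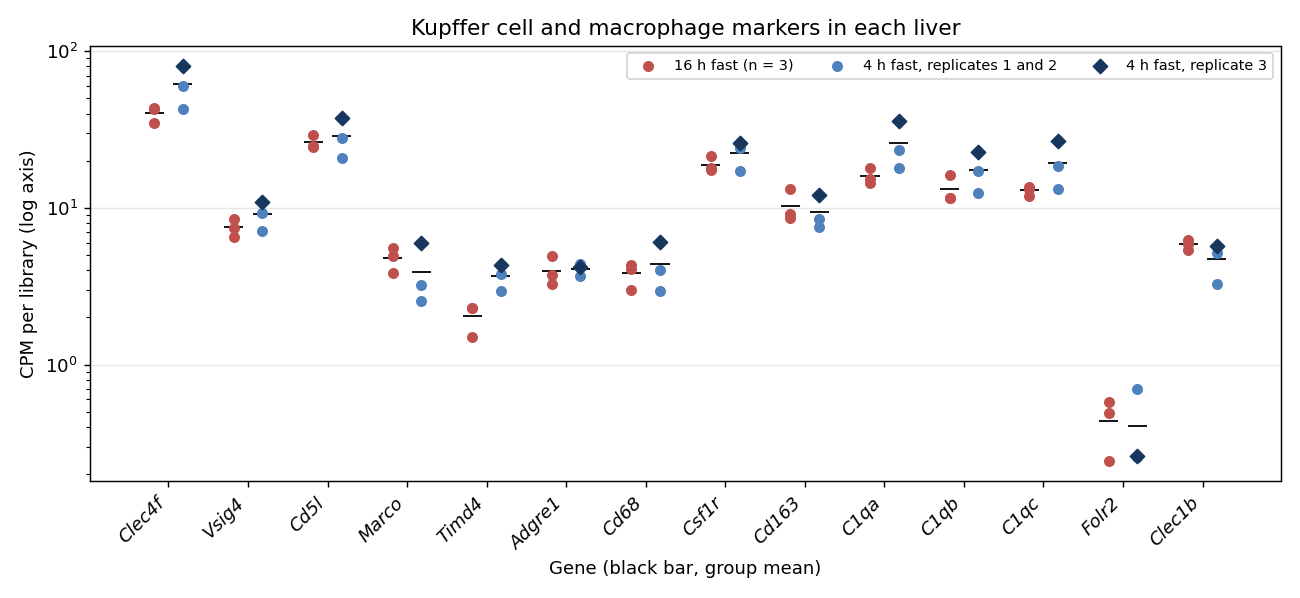
CPM of the 14 Kupffer cell and macrophage markers (log axis) in each library, 16 h fast left and 4 h fast right for each gene, with a black bar at the group mean. Replicate 3 of the 4 h fast (diamonds) is the highest library for 10 of the 14, and the groups are apart for Timd4.

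The summed level of the 14 markers was 179, 169 and 152 CPM in replicates 1, 2 and 3 of the 16 h fast, against 209, 157 and 279 CPM in those of the 4 h fast. The groups overlap, because 4 h replicate 2 lies within the range of the 16 h livers. The means were 167 ± 13.98 CPM after 16 h and 215 ± 61.6 CPM after 4 h (SD, n = 3 each), so the spread among 4 h livers was wider than the distance between the groups. Replicate 3 of the 4 h fast was the highest of the 6 libraries for 10 of the 14 markers, against 27.8% of all genes tested. Its level was above the mean of the other 4 h livers for 13 of the 14, with a median ratio of 1.52.

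**Figure D2:**
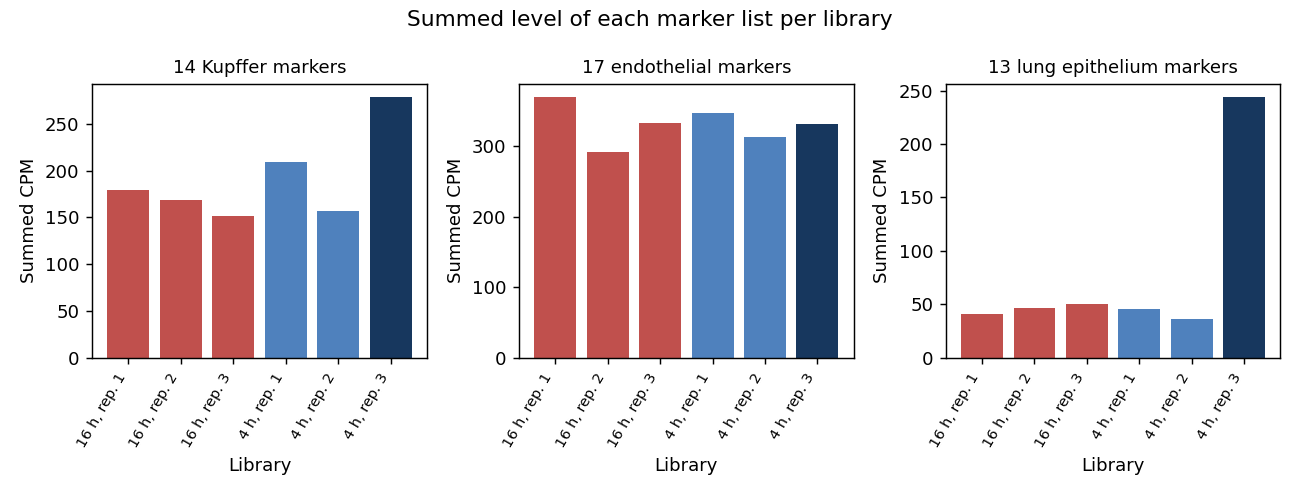
Summed CPM of 3 marker lists in each library, 16 h fast in red left of 4 h fast in blue, with 4 h replicate 3 in dark blue. Kupffer markers range from 152 to 179 CPM after 16 h and from 157 to 279 CPM after 4 h, endothelial markers from 292 to 370 CPM and from 312 to 347 CPM, and lung epithelium markers stand out in 4 h replicate 3 at 244 CPM.

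Timd4, a receptor for phosphatidylserine through which resident macrophages bind dying cells, lies on chromosome 11 at 46810800 to 46844332 (GRCm38). It had 1.51, 2.29 and 2.30 CPM in the 16 h livers, against 2.94, 3.797 and 4.33 CPM in the 4 h livers. All 16 h values lay below all 4 h values, a separation that 39.4% of the genes tested showed in one direction or the other and 19.7% with the 16 h group lower. The change was -0.85 ± 0.25 (edgeR adjusted p = 0.0354), a level 1.81-fold lower after 16 h. Without 4 h replicate 3 it was -0.70 (edgeR adjusted p = 0.0827). The call held without 4 h replicate 1 (0.0358) and was lost without 4 h replicate 2 (0.0724) or 16 h replicate 1, 2 or 3 (0.132, 0.0736 and 0.075).

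Clec4f, a galactose-binding lectin found on Kupffer cells of the mouse, had the highest level per kilobase of exon in the Kupffer list, at 20.6 CPM per kb over the 6 livers. It lies on chromosome 6 at 83644542 to 83656187. Its level was 43.1, 43.5 and 35.1 CPM in the 16 h livers, against 60.25, 43.1 and 80.9 CPM in the 4 h livers. The groups overlap, because 4 h replicate 2 equals 16 h replicate 1 at this precision and lies below 16 h replicate 2. The change of -0.60 ± 0.20 did not pass (edgeR adjusted p = 0.0635) and was -0.35 without 4 h replicate 3 (0.155). It passed without 4 h replicate 2 (0.00401) and with DESeq2 (adjusted p = 0.0203). It also passed with plain library totals (edgeR adjusted p = 0.04965) and with no filter on low counts (0.00016).

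The 3 chains of C1q, the subunit with which the complement cascade recognises antibody and dying cells, are encoded side by side on chromosome 4 and are made mostly by macrophages. C1qa had 18.04, 14.5 and 15.3 CPM in the 16 h livers, against 23.5, 18.02 and 35.9 CPM in the 4 h livers. C1qb had 16.4, 11.6 and 11.6 CPM in the 16 h livers, against 17.1, 12.5 and 22.7 CPM in the 4 h livers, and C1qc had 13.7, 13.3 and 12.0 CPM, against 18.6, 13.1 and 26.65 CPM. All 3 were highest in 4 h replicate 3 and next highest in 4 h replicate 1, and for each of them 4 h replicate 2 lay below the top 16 h library. The changes of -0.70 ± 0.22 for C1qa (edgeR adjusted p = 0.0531), -0.40 ± 0.21 for C1qb (0.218) and -0.59 ± 0.22 for C1qc (0.0859) did not pass. They were -0.38, -0.16 and -0.29 without 4 h replicate 3. C1qa and C1qc passed without 4 h replicate 2 (0.00591 and 0.00701) and with DESeq2 (adjusted p = 0.0137 and 0.0476). Both also passed with no filter on low counts (edgeR adjusted p = 6.58e-05 and 0.00274). C1qa alone passed with plain library totals (0.043), a minimum of 1 CPM in 3 libraries (0.0493) and the replicate number as a block (0.03065). C1qb passed in none of these settings.

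Marco, a scavenger receptor for bacteria and particles that macrophages of lung carry as well as Kupffer cells, passed only without 4 h replicate 3. Its level was 4.93, 5.54 and 3.83 CPM in the 16 h livers, against 2.54, 3.22 and 5.95 CPM in the 4 h livers. The 16 h values were above those of 4 h replicates 1 and 2 and, in each case, below that of replicate 3. With all livers the change was 0.29 ± 0.30 (edgeR adjusted p = 0.526). Without 4 h replicate 3 it was 0.75 (edgeR adjusted p = 0.0405), in a fit that called 20.9% of all genes, 11.1% higher and 9.73% lower. Of the 9 lung macrophage markers, 5 were highest in that library and 4 were not. The part of lung transcripts in the Marco values was not tested.

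The remaining receptors of the Kupffer list gave no call. Cd5l, the secreted apoptosis inhibitor of macrophages, had 29.2, 24.9 and 24.6 CPM in the 16 h livers, against 27.9, 20.9 and 37.8 CPM in the 4 h livers, with a change of -0.14 ± 0.19 that was 0.11 without 4 h replicate 3. Vsig4, the complement receptor that captures C3-coated particles, had 6.50 to 8.53 CPM after 16 h and 7.14 to 10.95 CPM after 4 h (-0.28 ± 0.18, and -0.13 without 4 h replicate 3). Cd163, the receptor for haemoglobin bound to haptoglobin, had 8.58 to 13.1 CPM after 16 h and 7.60 to 12.1 CPM after 4 h (0.12 ± 0.21, 0.35 without 4 h replicate 3 and -0.080 without 16 h replicate 2). Clec1b, a lectin receptor for podoplanin, had 5.38 to 6.26 CPM after 16 h and 3.28 to 5.68 CPM after 4 h (0.30 ± 0.21). For these 4 genes the groups overlap, with edgeR adjusted p between 0.296 and 0.724.

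The lineage genes of macrophages gave no call either. Csf1r, the receptor for the growth factors CSF1 and IL-34, had 21.3, 17.9 and 17.5 CPM in the 16 h livers, against 24.0, 17.1 and 25.8 CPM in the 4 h livers (-0.24 ± 0.16, edgeR adjusted p = 0.307, and -0.12 without 4 h replicate 3). An antisense gene covers 15.1% of its exon bases. Adgre1, which encodes the F4/80 antigen, had 3.73, 4.94 and 3.29 CPM, against 4.37, 3.67 and 4.22 CPM (-0.05 ± 0.21, edgeR adjusted p = 0.884, and -0.03 without 4 h replicate 3). Cd68, a glycoprotein of macrophage lysosomes, had 4.35, 4.09 and 3.00 CPM, against 4.00, 2.96 and 6.10 CPM (-0.20 ± 0.27, and 0.12 without 4 h replicate 3). None of the 3 separates the groups. The 95% interval ran from -0.59 to 0.10 for Csf1r, from -0.51 to 0.40 for Adgre1 and from -0.78 to 0.38 for Cd68, so a 2-fold change lies outside each.

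Folr2, the beta form of the folate receptor and a marker of resident macrophages, was the marker left untested. It had 13, 4 and 12 counts in the 16 h livers and 19, 4 and 5 counts in the 4 h livers. In GENCODE M21 63.1% of its exon bases lie under the antisense gene Gm10602, and whether counting used the strand is not given. The part of that overlap in the low counts was not tested.

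Among the 17 endothelial markers, Tek fell, none rose and 16 did not pass, beside 9.51% of all genes called lower. The median change was -0.13, with 9 below 0 and 8 above, beside 53.2% of all genes below 0. By unadjusted p under 0.05, 1 was higher (Lyve1) and 2 were lower (Tek and Egfl7), beside 16.2% and 17.3% of all genes. DESeq2 called Tek alone, as lower, beside 9.78% of all genes. The summed level was 370, 292 and 333 CPM in the 16 h livers, against 347, 312 and 332 CPM in the 4 h livers, so the groups overlap, with means of 332 ± 38.9 and 330 ± 17.2 CPM (SD, n = 3 each). For 16 of the 17 the 95% interval of the change lay between -1 and 1, and the changes ran from -0.61 to 0.51.

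**Figure D3:**
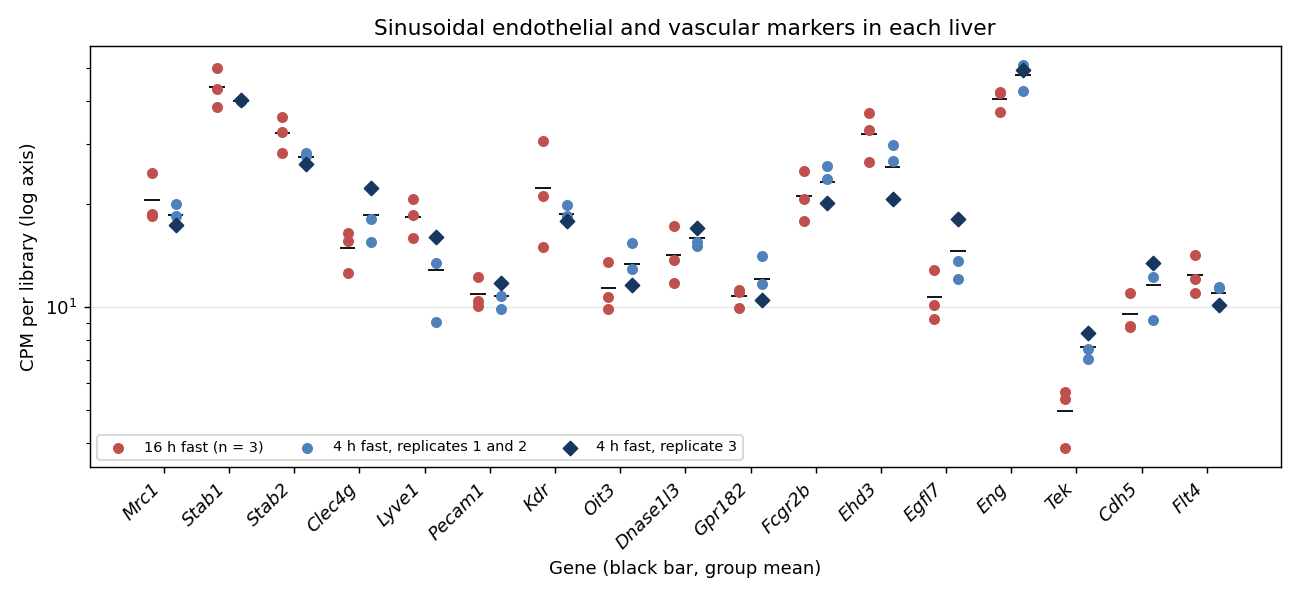
CPM of the 17 endothelial markers (log axis) in each library, 16 h fast left and 4 h fast right for each gene, with a black bar at the group mean and diamonds for 4 h replicate 3. The groups are apart for Tek and Eng, both lower after 16 h, which is 2 of 17 beside 19.7% of all genes.

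Tek, the angiopoietin receptor Tie2, lies on chromosome 4 at 94739289 to 94874976. It had 5.64, 3.85 and 5.39 CPM in the 16 h livers, against 7.02, 7.53 and 8.40 CPM in the 4 h livers, and the groups did not overlap. The change was -0.61 ± 0.18 (edgeR adjusted p = 0.0371), a level 1.53-fold lower after 16 h. It was -0.52 without 4 h replicate 3 (edgeR adjusted p = 0.0704). The call was lost whichever single library was left out, with edgeR adjusted p of 0.0638 and 0.0693 without 4 h replicates 1 and 2 and of 0.0573, 0.135 and 0.0841 without 16 h replicates 1, 2 and 3.

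Lyve1, a hyaluronan receptor of sinusoidal and lymphatic endothelium, was higher in most 16 h livers. Its level was 18.5, 20.7 and 16.0 CPM in the 16 h livers, against 13.45, 9.01 and 16.0 CPM in the 4 h livers. The lowest 16 h liver was level with 4 h replicate 3, and the other 4 h livers lay below all 16 h livers. The change of 0.51 ± 0.19 did not pass (edgeR adjusted p = 0.0847). Without 4 h replicate 3 it was 0.70 and passed (edgeR adjusted p = 0.0184).

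The other scavenger receptors of the sinusoid did not pass. Stab1 and Stab2, the stabilins that clear hyaluronan and modified proteins, had 43.6, 38.6 and 50.3 CPM (Stab1) and 36.1, 28.2 and 32.6 CPM (Stab2) in the 16 h livers, against 40.1, 40.2 and 40.4 CPM and 28.3, 27.7 and 26.2 CPM in the 4 h livers. Mrc1, the mannose receptor, which Kupffer cells express too, had 24.7, 18.4 and 18.75 CPM in the 16 h livers, against 20.02, 18.4 and 17.4 CPM in the 4 h livers. The changes were 0.14 ± 0.11, 0.24 ± 0.12 and 0.15 ± 0.14, with edgeR adjusted p of 0.437, 0.177 and 0.489, and 16 h replicate 1 was above all 4 h livers for each of the 3. The 95% intervals reach at most 0.49, for Stab2. Clec4g, a lectin of sinusoidal endothelium, had 12.6 to 16.5 CPM after 16 h and 15.5 to 22.3 CPM after 4 h (-0.32 ± 0.16, and -0.17 without 4 h replicate 3), and Fcgr2b, the inhibitory Fc receptor that clears small immune complexes, had 17.8 to 25.0 CPM after 16 h and 20.1 to 25.9 CPM after 4 h (-0.13 ± 0.15, and -0.22 without it).

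Further genes enriched in sinusoidal endothelium overlapped between the groups. Ehd3, which takes part in endosome recycling, had 37.0, 26.6 and 33.0 CPM in the 16 h livers, against 29.7, 26.8 and 20.8 CPM in the 4 h livers (0.32 ± 0.16, edgeR adjusted p = 0.174, and 0.20 without 4 h replicate 3). Oit3, a secreted protein, had 9.87 to 13.5 CPM after 16 h and 11.6 to 15.4 CPM after 4 h (-0.23 ± 0.16). Dnase1l3, a secreted nuclease for DNA in chromatin, had 11.7 to 17.2 CPM after 16 h and 15.1 to 17.05 CPM after 4 h (-0.16 ± 0.15, and -0.09 without 4 h replicate 3). Gpr182, an atypical chemokine receptor, had 9.95 to 11.2 CPM after 16 h and 10.5 to 14.1 CPM after 4 h (-0.18 ± 0.15).

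The vascular receptors and junction genes, which are not restricted to the sinusoid, held 1 call, that of Tek, and 6 genes that did not pass. Eng, the endoglin coreceptor for BMP ligands, was the most abundant of the endothelial markers per kilobase of exon (10.9 CPM per kb over the 6 livers). It had 42.7, 37.2 and 42.3 CPM in the 16 h livers, against 51.1, 42.9 and 49.5 CPM in the 4 h livers, so all 16 h values were the lower, if by little between 16 h replicate 1 and 4 h replicate 2. Its change of -0.23 ± 0.11 did not pass (edgeR adjusted p = 0.169). Egfl7, a secreted protein of endothelium whose gene hosts miR-126, had 10.1, 9.21 and 12.8 CPM, against 13.6, 12.0 and 18.1 CPM (-0.44 ± 0.18, edgeR adjusted p = 0.105). Other genes share 11.2% of its exon bases. Its 16 h replicate 3 lay above 4 h replicate 2, and the change was -0.25 without 4 h replicate 3.

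Kdr, the main VEGF receptor of endothelium, had the largest SD of the endothelial markers, 7.92 CPM among 16 h livers, with 30.7, 15.0 and 21.1 CPM in the 16 h livers, against 19.8, 18.5 and 17.9 CPM in the 4 h livers. The highest and the lowest value were both 16 h livers, and the change was 0.25 ± 0.22 (edgeR adjusted p = 0.446) and -0.039 without 16 h replicate 1. Flt4, the VEGF receptor best known from lymphatic vessels, had 11.0 to 14.2 CPM after 16 h and 10.1 to 11.5 CPM after 4 h (0.18 ± 0.14). The junction proteins gave 8.72 to 11.0 CPM after 16 h and 9.14 to 13.45 CPM after 4 h for Cdh5, VE-cadherin (-0.29 ± 0.17, and -0.17 without 4 h replicate 3), and 10.04 to 12.2 CPM after 16 h and 9.85 to 11.8 CPM after 4 h for Pecam1 (0.01 ± 0.14, and 0.09 without 4 h replicate 3). Pecam1 was thus the marker with the change closest to 0, and its 95% interval ran from -0.29 to 0.32.

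**Figure D4:**
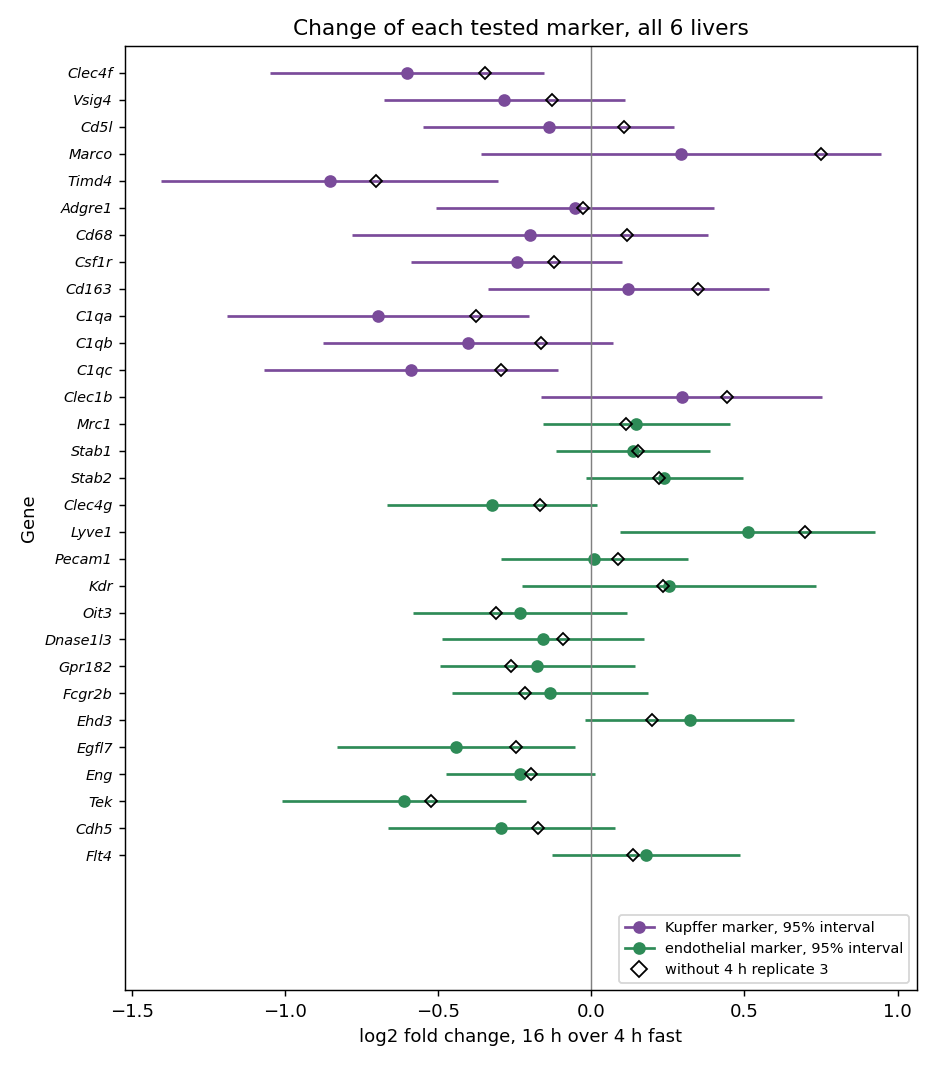
log2 fold change of 16 h over 4 h for the 30 markers tested, with 95% intervals (bars), Kupffer markers in purple and endothelial markers in green; open diamonds give the change without 4 h replicate 3. For the Kupffer markers the diamonds lie to the right of the filled points, so that Cd5l and Cd68 cross 0, while endothelial markers move in both directions.

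The Kupffer list and the endothelial list stood in different proportions from liver to liver, and an association between their sums was not tested. The ratio of their summed CPM was 0.484, 0.578 and 0.456 in the 16 h livers, against 0.603, 0.501 and 0.843 in the 4 h livers. It was highest in 4 h replicate 3, in which the summed endothelial level was within the range of the others. Replicate 1 of the 16 h fast was the highest library for 7 of 17 endothelial markers and for 0 of 14 Kupffer markers, and 4 h replicate 3 for 4 and 10 of them. Of all genes tested, 13% were highest in 16 h replicate 1 and 27.8% in 4 h replicate 3. Replicate 2 of the 16 h fast was the lowest for 9 endothelial markers, against 18.6% of all genes tested.

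Further macrophage genes, from a list of 33, were below 0 in 24 of 31 tested cases, beside 53.2% of all genes. Of these 31, 5 fell, none rose and 26 did not pass, beside 9.51% of all genes called lower, and the median change was -0.32 (-0.15 without 4 h replicate 3). By unadjusted p under 0.05, 9 were lower and 1 higher, beside 17.3% and 16.2% of all genes. DESeq2 called 6 lower and 0 higher, beside 9.78% and 10.1% of all genes. The fallers were Cd74, the invariant chain of MHC class II (-0.92 ± 0.17), Ctss, the cathepsin that trims it (-0.68 ± 0.18), the high-affinity Fc receptor Fcgr1 (-1.04 ± 0.29), the actin-binding protein Aif1 (-1.005 ± 0.281) and the lectin Cd207 (-0.94 ± 0.25). All 16 h livers lay below all 4 h livers for these 5 and for 9 of the 31 in all, beside 19.7% of all genes. The most abundant gene of the list, the complement component C6, did not pass (-0.14 ± 0.11).

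Cd74 had 18.7, 12.5 and 15.5 CPM in the 16 h livers, against 31.2, 23.7 and 33.6 CPM in the 4 h livers (edgeR adjusted p = 0.00342), and it passed without any single library, with a highest edgeR adjusted p of 0.0219. The other 4 were less firm. Ctss and Fcgr1 passed without 4 h replicate 3 (0.044 and 0.0453), while Cd207 and Aif1 did not (0.0521 and 0.0649). Fallers numbered 3 without 4 h replicate 1 or 3 or 16 h replicate 1, 6 without 4 h replicate 2, and 2 and 1 without 16 h replicates 2 and 3.

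Regulators of macrophage identity and signals of their niche numbered 25, of which 23 were tested. Id3, Cebpa and Zeb2 fell, none rose and 20 did not pass (median -0.19, and 0.00 without 4 h replicate 3), again beside 9.51% of all genes. By unadjusted p under 0.05, 2 were higher and 6 lower, beside 16.2% and 17.3% of all genes. DESeq2 called 0 higher and 3 lower, beside 10.1% and 9.78% of all genes. Id3, a transcriptional regulator that Kupffer cells of the mouse need and that endothelium expresses too, had 24.8, 21.7 and 18.75 CPM in the 16 h livers, against 44.75, 37.1 and 35.6 CPM in the 4 h livers (-0.85 ± 0.13, edgeR adjusted p = 0.00146). No 16 h liver reached the 4 h range, and the change was -0.91 without 4 h replicate 3. Cebpa, a factor of hepatocytes as well as of myeloid cells and the most abundant member, averaged 345 ± 34.2 CPM in 16 h livers and 573 ± 87.7 CPM in 4 h livers (SD, n = 3 each) and fell by 0.73 ± 0.13. The call of Zeb2 (-0.52 ± 0.16, edgeR adjusted p = 0.0401) was lost without 4 h replicate 1 (0.183) or any one 16 h library (0.0958, 0.106 and 0.152), and without 4 h replicate 3 Smad4 passed as higher (0.30, edgeR adjusted p = 0.0421). The falls numbered 5 without 4 h replicate 2.

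The wider endothelium gave few calls. Of 35 further endothelial genes, all tested, 1 fell, none rose and 34 did not pass (median -0.17, and 0.03 without 4 h replicate 3), a smaller share than the 9.51% of all genes called lower. By unadjusted p under 0.05, 4 were lower and 0 higher, beside 17.3% and 16.2% of all genes. DESeq2 called 2 lower and 0 higher, beside 9.78% and 10.1% of all genes. The gene that fell was Nrp1, a coreceptor for VEGF and semaphorins, with 41.3, 46.8 and 34.4 CPM in the 16 h livers, against 50.6, 51.8 and 73.5 CPM in the 4 h livers (-0.52 ± 0.16, edgeR adjusted p = 0.0435). Without 4 h replicate 3, its highest library, the change was -0.32 (0.0712), and the call was also lost without 16 h replicate 1, 2 or 3 (0.109, 0.0592 and 0.172). The most abundant of these genes, the cytokine receptor subunit Il6st, did not pass (0.04 ± 0.14).

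Regulators of the sinusoidal endothelium and signals secreted by it or acting on it, 22 genes that include Wnt2, Wnt9b, Rspo3, Bmp2 and Bmp6, held no call in edgeR or DESeq2. Which cells of the liver made these transcripts was not tested. Over all genes edgeR called 18.7%, and DESeq2 called 10.1% higher and 9.78% lower. By unadjusted p under 0.05, 3 were lower and 1 higher, beside 17.3% and 16.2% of all genes. The median change was -0.13 (0.00 without 4 h replicate 3). Vegfa, the endothelial growth factor and the most abundant of them, had 188, 199 and 195 CPM in the 16 h livers, against 252, 228 and 223 CPM in the 4 h livers. All 16 h livers lay below all 4 h livers, as for 5 of the 22 genes in all, beside 19.7% of all genes tested. For 1 of the 22 they lay above. The change of Vegfa, -0.27 ± 0.10, did not pass (edgeR adjusted p = 0.0897) but did so without 4 h replicate 3 (-0.30, edgeR adjusted p = 0.0295).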

How the data were processed

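Liver RNA of 6 mice was sequenced. The authors deposited raw read counts for Ensembl genes in a table for each library. Per the series' design text and the submitters' processing notes, reads were trimmed with Trimmomatic, checked with FastQC, aligned with STAR to GRCm38 (mm10), counted with HTSeq and compared with DESeq2. Not given in the sources used here are versions, annotation release and strand setting. From each table the 5 summary lines stayed out of library sizes and tests, among them 6.44% to 7.14% of reads outside genes and 5.78% to 6.59% in more than 1 gene.

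Symbols, positions, exon lengths and overlaps came from GENCODE M21 (GRCm38), which holds 99.57% of the identifiers. Positions printed are those of M21. Promoter sequences are from RefSeq (GRCm38.p6).

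The test was that of edgeR 4.0.16 (R 4.3.3) on the 13812 genes that filterByExpr kept (TMM, robust quasi-likelihood fit, fasting group as the only term, 2-sided). The biological coefficient of variation was 14.3%. DESeq2 1.42.0 was an alternative, besides other scalings and filters, the replicate number as a block and each library left out in turn. Before use, the fit was tested on simulated data. No pair of libraries of a group was a duplicate (chi-square per degree of freedom 17.3 to 68.5). Every marker is accounted for. From further lists, genes that passed and the most abundant gene could be named. Smad4 was added after its values were seen. Markers and lists were chosen with earlier results of these data known.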

Additional observations from a re-analysis of the deposited data

How the results depend on the processing

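The sign of both list medians held under every alternative tried. The number of Kupffer markers called lower was 1 in the main fit, beside 1313 of all genes. It was 3 with plain library totals (1377 of all genes), 4 with DESeq2 (1351) and 4 with no filter on low counts (1555). With a minimum of 1 CPM in 3 libraries it was 2 (1293), and with the replicate number as a block 2 (1396). Leaving out single libraries it ran from 0 to 3, with 0 to 1 higher, and the list median from -0.38 to -0.12. For endothelial markers 1 was higher with no filter (Lyve1), 2 were lower with the block (Tek and Egfl7), and without single libraries 0 were lower and 0 to 1 higher, with medians from -0.20 to -0.026. Over all genes the fits without single libraries gave 671 to 1594 higher and 696 to 1393 lower. The cause of these shifts was not tested.

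Of 360 refitted values of the 30 markers, 323 kept their direction and side of the threshold, 17 passed only in the alternative, 11 lost their call and 9 changed sign. All sign changes were in markers that had not passed: without single libraries Cd5l ran from -0.30 to 0.11 and Cd68 from -0.38 to 0.12 (above 0 without 4 h replicate 3), Adgre1 from -0.22 to 0.074 (above 0 without 4 h replicate 1 or 16 h replicate 3), Cd163 from -0.080 to 0.35 (below 0 without 16 h replicate 2), Kdr from -0.039 to 0.47 (below 0 without 16 h replicate 1) and Pecam1 from -0.071 to 0.087 (below 0 without 4 h replicate 2 or 16 h replicate 1, and -0.0040 with plain totals). The replicate numbers were not taken to pair livers, as the labels give no batch. Deviations from the group means correlated at 0.088, 0.093 and 0.045 between livers of the same number and at -0.138 to 0.066 between the others. All livers except 16 h replicate 3 correlated best with their own number, and whether the numbers mark pairs was not tested. With the block, 1352 genes were higher and 1396 lower, against 1268 and 1313 without it. Timd4, Marco and Cd68, each averaging under 5 CPM, had the largest SE (0.25 to 0.30).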
